A study of Mus musculus with 12 samples.

Results

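The 10 well-known target genes of the tumor suppressor p53 were followed in whole subcutaneous tumors of mice. They were Cdkn1a, Mdm2, Ccng1, Bax, Bbc3, Phlda3, Sesn1, Trp53inp1, Zmat3 and Aen, picked by name as textbook p53 targets, and all 10 were found among the 14496 genes of the deposited table. The tumors were of Renca, a renal carcinoma line of BALB/c mice, inoculated under the skin of BALB/C mice and harvested on day 14 as a mix of tumor and stroma cells. In the group named IK, 6 subcutaneous tumors grew while a further tumor grew inside the kidney, and in the group named SC, 6 grew with no kidney tumor. The series asked how a distant, immunosuppressive kidney tumor relates to the transcriptome of the subcutaneous tumor. The labels do not state that the tumors of a group were of different mice; if they were not, the p-values here cover sample-to-sample spread alone. The p53 status of the line was not given in the sources used here.

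The p53 protein is a transcription factor that is held low in unstressed cells by Mdm2, a ubiquitin ligase and itself a p53 target, so that the pair forms a feedback loop. When DNA damage or other stress frees p53, it switches on genes that stop the cell cycle, start apoptosis, repair DNA or adjust metabolism. Many of these genes are also known to be transcribed under other stresses without p53.

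The binding element of p53 is known as a pair of decamers, each made of purines, a C, a pair of A or T bases, a G, and pyrimidines, with up to 13 bases between the decamers. Windows of 300 bases (250 before and 50 after each RefSeq start site, build GRCm38.p6) were found for 8 of the 10 genes, 13 windows in all; Trp53inp1 and Zmat3 had none. The 5 best pairs are shown here, because they show how differently matches to the p53 motif are spelled and placed in genes that carry the same name of target. They are printed 5′ to 3′ on the gene's strand, with both decamers of the pair that matched with the fewest mismatches in capitals.
Cdkn1a: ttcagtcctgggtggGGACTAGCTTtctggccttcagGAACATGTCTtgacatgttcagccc
Ccng1: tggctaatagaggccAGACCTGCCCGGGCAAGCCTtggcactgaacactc
Bax: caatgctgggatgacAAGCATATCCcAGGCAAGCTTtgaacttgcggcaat
Sesn1: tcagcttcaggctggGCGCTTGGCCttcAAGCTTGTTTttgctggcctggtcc
Aen: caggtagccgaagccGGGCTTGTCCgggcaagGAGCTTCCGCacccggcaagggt

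In Cdkn1a (chr17:29090891-29090952, plus strand) the pair had 0 mismatches, a spacer of 12 bases, and ran from -73 to -42 bases relative to the upstream one of its start sites. The lower-case bases right after its second decamer, tgacatgttc, match a decamer at all but the first base. That decamer and GAACATGTCT thus form a further pair with 1 mismatch and a spacer of 0 bases. The search ranked pairs by mismatches before spacer, so the capitals do not mark this closer pair. Ccng1 (chr11:40755447-40755496, minus strand) and Bax (chr7:45467075-45467125, minus strand) had 1 mismatch each, with spacers of 0 and 1 bases. Sesn1 (chr10:41887238-41887290, plus strand) and Aen (chr7:78895922-78895976, plus strand) had 2 mismatches each, with spacers of 3 and 7 bases. At the other start site of Cdkn1a and of Sesn1 the best pair had 5 mismatches. The best pairs within the windows of Bbc3, Mdm2 and Phlda3 had 3, 4 and 4 mismatches. Sequence outside the windows was not searched for any gene. A pair with at most 2 mismatches was present for 5 of the 8 genes and for 11.5% of all 27025 genes with a window. At most 1 mismatch was found for 3 of the 8 genes and for 1.24% of all genes, and 0 mismatches for 1 of the 8 and for 0.0740% of all. These matches describe letters near start sites and say nothing of binding in these tumors. The element is its own reverse complement in form, so that searching either strand gives the same matches.

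Each tumor gave 53312559 to 66142468 reads in the table, and a member had at least 901 reads in every tumor, so that counting error was small beside the spread between tumors. Levels are given in log2 CPM, the log2 of a gene's share of its library (CPM) after adding 0.5 reads. Epithelial and renal markers of the tumor cells averaged 7.59 to 7.90 log2 CPM over the 5 tested of 6 (Krt8, Krt18, Cdh16, Pax8 and Pax2), while Krt19 was not analysed here. Other tissue differed between tumors more widely, with a mean level of 8 skeletal muscle genes from -1.33 in SC replicate 6 to 5.52 in SC replicate 5, of 4 fat cell genes from -0.50 to 3.17, and of 8 cytotoxic lymphocyte genes from -0.28 to 3.63. In whole tumors, fewer cells of a type and less RNA per cell cannot be told apart.

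No p53 target gene passed the test between the groups. Mdm2 and Cdkn1a had higher means in IK tumors, by 1.09-fold and 1.26-fold, and Aen had a lower mean at 0.933-fold. Using limma with Benjamini-Hochberg adjustment over all 14008 genes tested, 0 of the 10 members and 0% of all genes had an adjusted p below 0.05, and limma voom on the recovered reads also called 0 members and 0 genes. At an unadjusted p below 0.05 there was 1 member of 10, Mdm2, against 11.5% of all genes, a share near the background. Means were higher in IK tumors for 8 of the 10 members and for 53.3% of all genes. The median difference (IK minus SC, log2) was 0.05 over the members and 0.01 over all genes tested. The groups overlapped for every member, while 0.478% of all genes had groups that did not overlap.

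**Figure D1:**
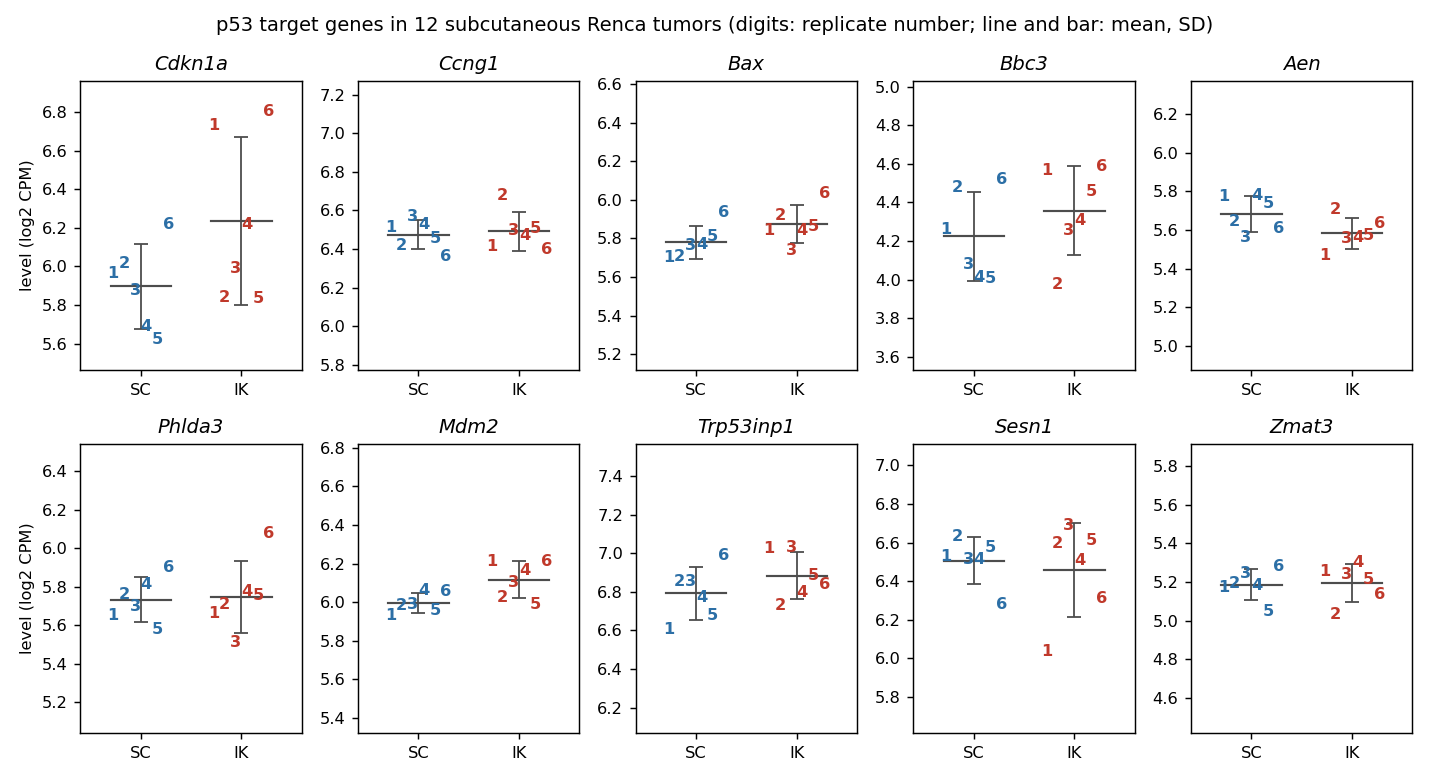
Level (log2 CPM) of each p53 target gene in each tumor, SC in blue and IK in red, with the replicate number as the mark and the group mean and SD (n = 6) in gray; every panel spans the same height on the log2 scale. Cdkn1a stands at 6.73 and 6.80 in IK replicates 1 and 6 and at most at 6.22 in the other 10 tumors.

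The cell cycle arrest genes were Cdkn1a and Ccng1. Cdkn1a (ENSMUSG00000023067) encodes p21, the inhibitor of cyclin-dependent kinases through which p53 halts the cycle. Its level ran from 5.83 to 6.80 log2 CPM in IK tumors, with a median of 6.10, and from 5.62 to 6.22 in SC tumors, with a median of 5.92. Only IK replicates 1 (6.73) and 6 (6.80) lay above all SC tumors, and the other 4 IK tumors (5.83 to 6.22) lay within the SC range. Group means were 6.24 ± 0.43 and 5.90 ± 0.22 (SD, n = 6 each), a difference of 0.34 (limma, 95% interval -0.05 to 0.72, unadjusted p = 0.0803, adjusted p = 0.461). Without IK replicate 6 the difference was 0.22, and without IK replicate 1 it was 0.24.

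Ccng1 (ENSMUSG00000020326) encodes cyclin G1, which recruits a phosphatase to Mdm2 and so dampens p53. It ran from 6.40 to 6.68 in IK tumors (median 6.48) and from 6.36 to 6.57 in SC tumors (median 6.48). The groups covered nearly the same range, with a difference of 0.02 (limma, 95% interval -0.09 to 0.13, adjusted p = 0.884), an interval of 0.940-fold to 1.09-fold.

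Among the apoptosis genes, Bax (ENSMUSG00000003873) encodes the pore-forming effector of the mitochondrial pathway. It ran from 5.74 to 6.03 in IK tumors (median 5.85) and from 5.70 to 5.93 in SC tumors (median 5.77). Replicate 6 was the highest tumor of each group, at 6.03 and 5.93. The difference was 0.09 (limma, 95% interval -0.02 to 0.20, adjusted p = 0.475), and 0.06 without IK replicate 6.

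Bbc3 (ENSMUSG00000002083) encodes PUMA, a BH3-only protein that frees Bax from its inhibitors. Its level ran from 3.98 to 4.58 in IK tumors (median 4.38) and from 4.01 to 4.52 in SC tumors (median 4.17). IK replicate 2 was the lowest of all 12 tumors, and IK replicates 1 and 6 were the highest. Group means were 4.36 ± 0.23 and 4.22 ± 0.23 (SD, n = 6 each), a difference of 0.13 (limma, 95% interval -0.13 to 0.40, adjusted p = 0.632). It was 0.09 without IK replicate 6 and 0.21 without IK replicate 2.

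Aen (ENSMUSG00000030609) encodes a nuclease that cuts DNA in apoptosis. It ran from 5.47 to 5.71 in IK tumors (median 5.57) and from 5.56 to 5.78 in SC tumors (median 5.69), so that 5 of 6 IK tumors lay below the SC median. The difference was -0.10 (limma, 95% interval -0.21 to 0.01, unadjusted p = 0.0611, adjusted p = 0.444). Phlda3 (ENSMUSG00000041801) encodes a pleckstrin homology protein that blocks the survival kinase Akt. It ran from 5.51 to 6.07 in IK tumors and from 5.58 to 5.90 in SC tumors, highest in replicate 6 of both groups. Its difference was 0.01 (limma, 95% interval -0.16 to 0.19, adjusted p = 0.948).

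The feedback genes were Mdm2 and Trp53inp1. Mdm2 (ENSMUSG00000020184) ran from 5.99 to 6.21 in IK tumors (median 6.13) and from 5.93 to 6.06 in SC tumors (median 5.98). All 6 IK tumors lay above the SC median and 4 of them above every SC tumor, while IK replicates 2 (6.02) and 5 (5.99) lay within the SC range. Group means were 6.12 ± 0.10 and 6.00 ± 0.05 (SD, n = 6 each), a difference of 0.12 (limma, 95% interval 0.02 to 0.22, unadjusted p = 0.0178, adjusted p = 0.432). An exact permutation test over all 924 assignments of the tumors gave p = 0.0281 for Mdm2 (two-sided, adjusted p = 0.498 over all genes), where 0.00216 is the smallest p possible.

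Trp53inp1 (ENSMUSG00000028211) encodes a stress protein that helps kinases phosphorylate p53. It ran from 6.73 to 7.03 in IK tumors (median 6.86) and from 6.61 to 6.99 in SC tumors (median 6.81), with a difference of 0.09 (limma, 95% interval -0.06 to 0.24, adjusted p = 0.563), and 0.05 without SC replicate 1. Trp53 itself stood at 5.96 ± 0.06 in IK and 5.98 ± 0.08 in SC tumors (SD, n = 6 each), with a difference of -0.02 (limma, 95% interval -0.11 to 0.06, adjusted p = 0.802). Mdm4, a relative of Mdm2 that also restrains p53, differed by -0.07 (limma, 95% interval -0.17 to 0.03, adjusted p = 0.527).

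Sesn1 and Zmat3 act in metabolism and RNA control. Sesn1 (ENSMUSG00000038332) encodes sestrin 1, which restrains the growth kinase complex mTORC1. It ran from 6.04 to 6.69 in IK tumors (median 6.55) and from 6.28 to 6.63 in SC tumors (median 6.52). The low tumors were IK replicate 1 at 6.04, SC replicate 6 at 6.28 and IK replicate 6 at 6.31, and the other 9 lay at 6.51 or above. The difference was -0.05 (limma, 95% interval -0.27 to 0.17, adjusted p = 0.840). Zmat3 (ENSMUSG00000027663) encodes a zinc finger protein that binds RNA. It ran from 5.03 to 5.30 in IK tumors and from 5.05 to 5.28 in SC tumors, with a difference of 0.01 (limma, 95% interval -0.10 to 0.12, adjusted p = 0.948).

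**Figure D2:**
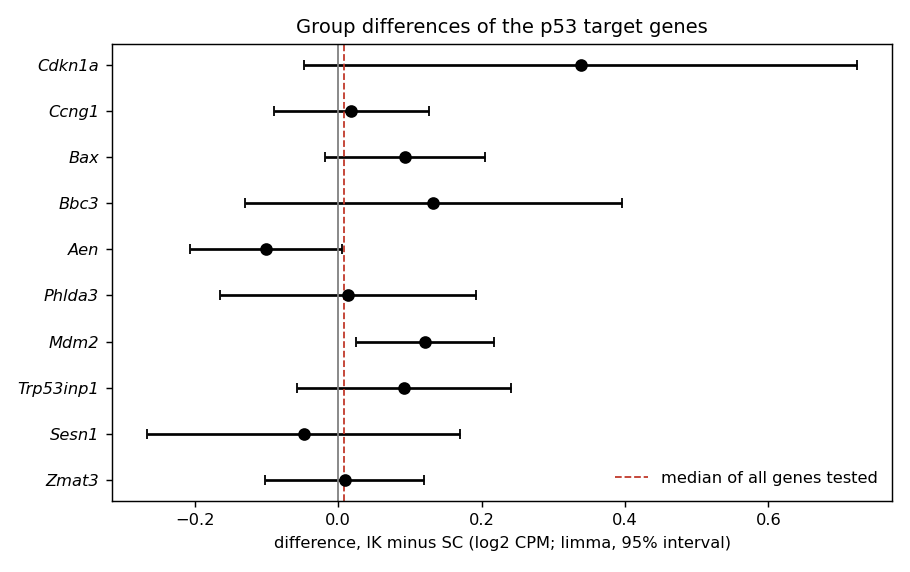
Difference between group means (IK minus SC, log2 CPM) of each p53 target gene with its 95% interval from limma, n = 6 tumors each; the dashed line is the median of all genes tested (0.01). The interval of Mdm2 (0.02 to 0.22) lies above 0 before adjustment, and that of Cdkn1a (-0.05 to 0.72) is the widest.

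The members differed much in how they varied. The pooled SD within groups was 0.34 log2 units for Cdkn1a, 0.23 for Bbc3, 0.19 for Sesn1 and 0.16 for Phlda3, against a median of 0.11 over all genes tested. Mdm2 (0.08), Aen (0.09), Zmat3 (0.09), Ccng1 (0.09) and Bax (0.09) lay below that median, and Trp53inp1 (0.13) just above it. Cdkn1a had a larger SD than 88.8% of genes tested, and Mdm2 than 25.0%.

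Per length of transcript (log2 CPM per kilobase of all exons in GENCODE M21, mean ± SD over 12 tumors), Bax at 5.17 ± 0.10 and Phlda3 at 5.10 ± 0.15 were highest and did not differ beyond their spread. Ccng1 (4.67 ± 0.09) and Sesn1 (4.49 ± 0.19) followed, and then Cdkn1a (4.24 ± 0.37) and Trp53inp1 (4.14 ± 0.13), and in this run from Ccng1 to Trp53inp1 each neighbour lay within the larger SD of the next. Mdm2 stood at 3.71 ± 0.10, Bbc3 at 3.20 ± 0.23, Aen at 3.10 ± 0.10 and Zmat3 at 1.68 ± 0.09. Bbc3 and Aen again lay within their spread. Exon lengths ran from 1559 bases for Phlda3 to 11435 for Zmat3 and come from a later annotation than the counts, so that this order is approximate.

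Over the 12 tumors the members did not move as a block. Of their 45 pairs, 24 had a positive Pearson r, the median r was 0.05, and 4 pairs passed a permutation test (100000 permutations, Benjamini-Hochberg over the 45 pairs). Cdkn1a and Bbc3 rose and fell together across tumors, with r = 0.78 (permutation p = 0.00144, adjusted p = 0.0216) and rho = 0.84 (permutation p = 0.00113, adjusted p = 0.0495). Without IK replicates 1 and 6, the tumors farthest from the median of Cdkn1a, r was 0.70, and it was 0.74 within IK and 0.92 within SC tumors. Cdkn1a and Mdm2 had r = 0.82 (permutation p = 0.00129, adjusted p = 0.0216) and rho = 0.61 (permutation p = 0.0402, adjusted p = 0.259). Without those 2 tumors r was 0.51, and it was 0.92 within IK and 0.19 within SC tumors, so the relation rests largely on IK replicates 1 and 6.

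The other 2 pairs ran in opposite directions. Ccng1 was low where Bbc3 was high, with r = -0.77 (permutation p = 0.00214, adjusted p = 0.0241) and rho = -0.79 (permutation p = 0.00330, adjusted p = 0.0495). It was -0.70 without IK replicate 2 and SC replicate 6, -0.92 within IK and -0.76 within SC tumors. Aen was low where Trp53inp1 was high, with r = -0.82 (permutation p = 0.00141, adjusted p = 0.0216) and rho = -0.81 (permutation p = 0.00239, adjusted p = 0.0495). This r was -0.77 without IK replicate 3 and SC replicate 1, -0.80 within IK and -0.79 within SC tumors. Cdkn1a and Sesn1 had r = -0.78 (permutation p = 0.00604, adjusted p = 0.0544), which did not pass, and -0.42 without IK replicates 1 and 6. Cdkn1a, Sesn1, Ccng1 and Aen are among the genes whose motif matches are printed above, as is Bax, while Bbc3, Mdm2 and Trp53inp1 are not. A link between these matches and the correlations was not tested.

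**Figure D3:**
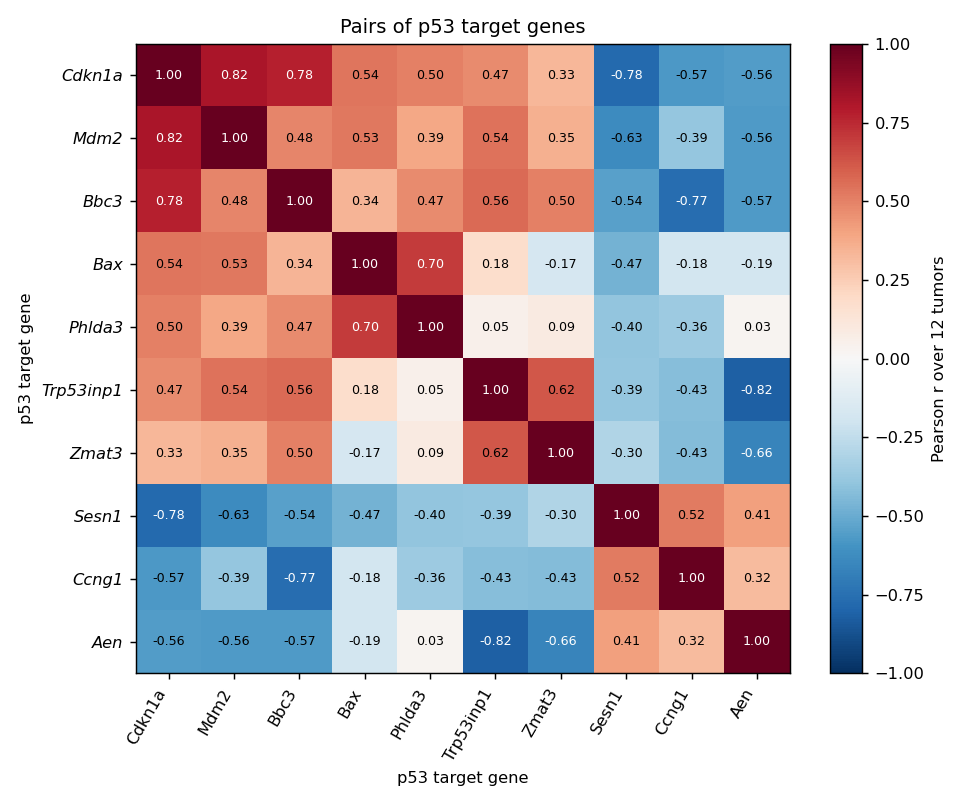
Pearson r over the 12 tumors for each pair of p53 target genes, red for positive and blue for negative. Cdkn1a, Mdm2 and Bbc3 are positive with each other, with 0.82 for Cdkn1a and Mdm2, and Sesn1, Ccng1 and Aen are negative with these 3.

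Some members moved with stress genes outside the p53 list. Each member was set against the mean level of each of 14 gene lists, 140 relations in all, of which 8 passed (permutation test of Pearson r, Benjamini-Hochberg over the 140). The first list held 6 genes of the ATF4 and CHOP stress response (Ddit3, Atf4, Trib3, Chac1, Asns and Atf3), and the second 9 tested hypoxia genes such as Adm, Bnip3 and Slc2a1. Cdkn1a followed the ATF4 and CHOP level, with r = 0.91 (permutation p = 1e-05, the smallest these permutations can give, adjusted p = 0.00140) and rho = 0.88 (permutation p = 0.000400, adjusted p = 0.0201). That r was 0.90 without IK replicates 1 and 6, 0.94 within IK and 0.93 within SC tumors. Bbc3 followed it too, with r = 0.85 (permutation p = 0.000720, adjusted p = 0.0202) and rho = 0.92 (permutation p = 3e-05, adjusted p = 0.00420), and r was 0.78 without the same 2 tumors. Sesn1 went against it, with r = -0.77 (permutation p = 0.00223, adjusted p = 0.0390), rho = -0.52 (permutation p = 0.0878, adjusted p = 0.158) and r = -0.55 without those tumors. With the level of 42 other p53 targets, Cdkn1a had r = 0.71 (permutation p = 0.00807, adjusted p = 0.0520). Mdm2 had r = 0.70 with it (permutation p = 0.0113, adjusted p = 0.0566), and neither passed. Without IK replicate 1 and SC replicate 6 these r were 0.79 and 0.70. They were 0.92 and 0.90 within IK tumors, and 0.15 and -0.42 within SC tumors.

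Among the members, Cdkn1a and Mdm2 passed against the hypoxia genes. Cdkn1a had r = 0.95 with the hypoxia level (permutation p = 0.000130, adjusted p = 0.00653) and rho = 0.78 (permutation p = 0.00428, adjusted p = 0.0583). It was 0.77 without IK replicates 1 and 6, whose hypoxia levels of 6.73 and 6.84 log2 CPM were the highest of the 12, and it was 0.999 within IK and 0.68 within SC tumors. Mdm2 had r = 0.90 (permutation p = 0.000140, adjusted p = 0.00653), with 0.91 within IK and 0.63 within SC tumors. Its rho was 0.84 (permutation p = 0.00107, adjusted p = 0.0250), and its r was 0.76 without the same 2 tumors. Sesn1 had r = -0.81 (permutation p = 0.00393, which did not pass after adjustment), rho = -0.63 (permutation p = 0.0330, adjusted p = 0.0982) and r = -0.54 without them. The group comparison was also fitted with the hypoxia level as a covariate, chosen after seeing the data. There the difference of Cdkn1a was -0.05 (limma, adjusted p = 0.990) and that of Mdm2 0.04 (limma, adjusted p = 0.989). The covariate had a higher mean in IK tumors and rose with both genes, so the fit was bound to lower their differences. The part of hypoxia in the levels of Cdkn1a and Mdm2 was not tested.

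**Figure D4:**
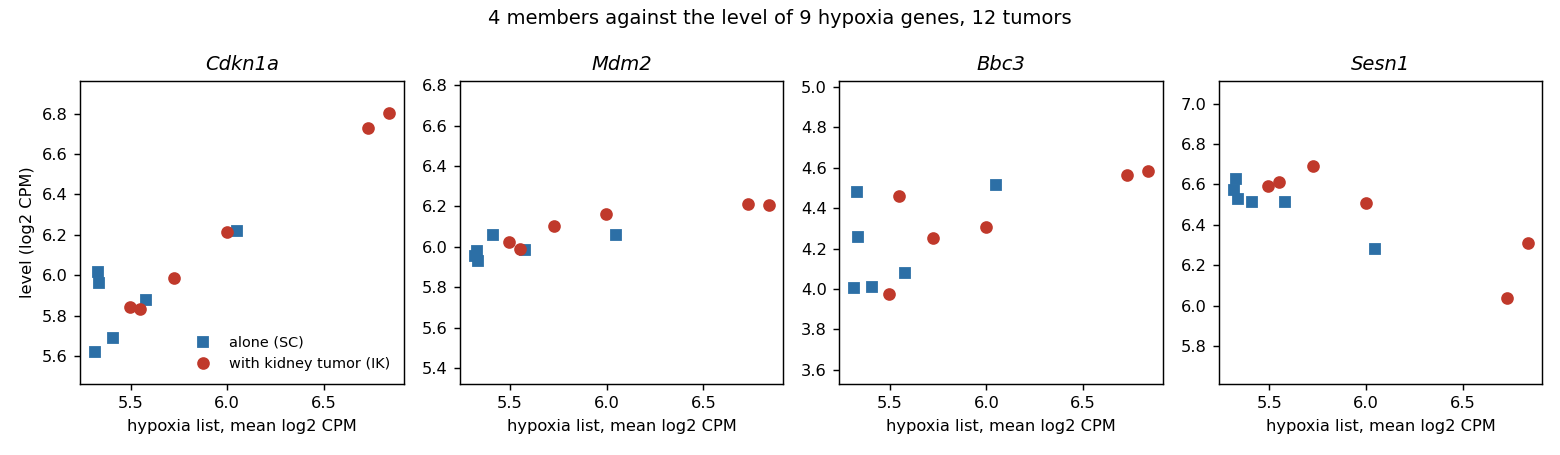
Level (log2 CPM) of Cdkn1a, Mdm2, Bbc3 and Sesn1 against the mean level of 9 hypoxia genes (log2 CPM) in each tumor, IK as red circles and SC as blue squares; the panels span the same height. Cdkn1a is highest, at 6.73 and 6.80, in the 2 tumors of highest hypoxia level, and Sesn1 is lowest in one of them, at 6.04.

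Markers of stroma moved with some members as well. Bbc3 was lower where 6 pan-leukocyte genes were higher, with r = -0.85 (permutation p = 0.00118, adjusted p = 0.0275), rho = -0.78 (permutation p = 0.00403, adjusted p = 0.0583) and r = -0.75 without IK replicate 2 and SC replicate 5. Against 6 macrophage genes its r was -0.82 (permutation p = 0.00170, adjusted p = 0.0340), rho -0.70 (permutation p = 0.0146, adjusted p = 0.0862) and r -0.69 without the same tumors. Mdm2 was lower where 4 fat cell genes were higher, with r = -0.87 (permutation p = 0.000240, adjusted p = 0.00840), rho = -0.85 (permutation p = 0.000900, adjusted p = 0.0250) and r = -0.78 without IK replicates 1 and 4. Within IK and SC tumors that r was -0.86 and -0.65. Cdkn1a was lower where 6 fibroblast genes were higher, with rho = -0.87 (permutation p = 0.000430, adjusted p = 0.0201), while its r of -0.74 did not pass (permutation p = 0.00551, adjusted p = 0.0520) and was -0.68 without IK replicate 2 and SC replicate 5. Against the leukocyte genes Cdkn1a had rho = -0.80 (permutation p = 0.00256, adjusted p = 0.0512) and r = -0.68 (permutation p = 0.0126, adjusted p = 0.0566), and neither passed. Zmat3 was lower where 8 skeletal muscle genes were higher, with rho = -0.85 (permutation p = 0.000810, adjusted p = 0.0250), while its r of -0.67 did not pass (permutation p = 0.0155, adjusted p = 0.0603) and was -0.82 without IK replicate 1 and SC replicate 6. The leukocyte level ran from 6.47 to 7.30 in IK and from 6.39 to 7.40 in SC tumors, and all 6 of its genes had lower means in IK tumors. The fat cell level ran from -0.50 to 2.07 in IK and from 0.98 to 3.17 in SC tumors, with 4 of 4 tested genes lower in mean. Among the lists, cytotoxic lymphocyte genes had the largest median difference between the groups, -1.76, with 8 of 8 lower in mean in IK tumors and 7 lower at an unadjusted p below 0.05, against 5.62% of all genes tested (limma, 0 past the adjusted threshold). Means were also lower in IK tumors for 6 of 6 macrophage genes (median -0.14), 6 of 6 fibroblast genes (median -0.43), 5 of 5 endothelial genes (median -0.18) and 5 of 5 tested epithelial and renal genes (median -0.08), with 0 past the adjusted threshold. The part of stroma in the levels of Bbc3, Mdm2, Cdkn1a and Zmat3 was not tested. The level of the cytotoxic lymphocyte list split the tumors into a low and a high set, and no correlation with it is given.

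**Figure D5:**
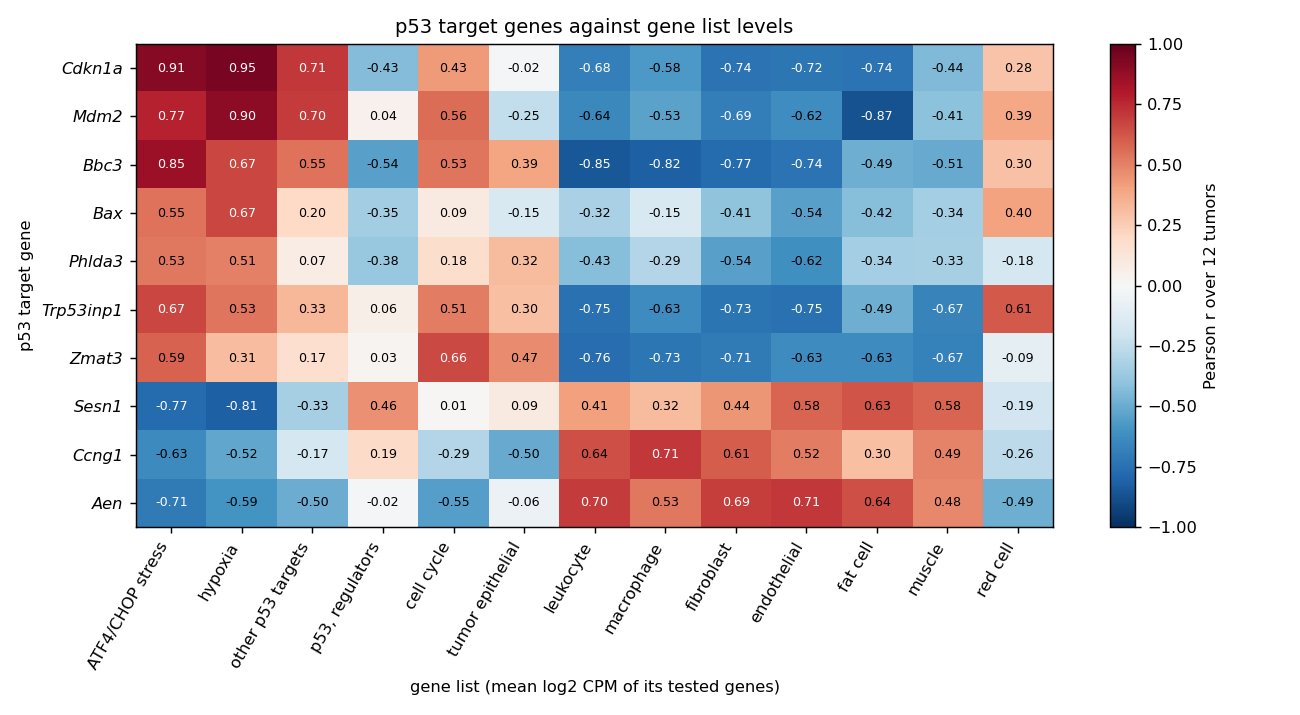
Pearson r over the 12 tumors between each p53 target gene and the mean level (log2 CPM) of each of 13 gene lists, red for positive and blue for negative. Sesn1, Ccng1 and Aen are negative with the ATF4 and CHOP and hypoxia lists, and all other members are positive with both (0.91 and 0.95 for Cdkn1a). Not all of these relations passed the test, and those that did are given in the text.

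By Pearson r over the 12 tumors, the genes most like Cdkn1a among all those tested were Pvr (0.97), Selenbp1 (0.96), Pcgf5 (0.95), Plod1 (0.95) and Ero1l (0.95). Without IK replicates 1 and 6 these values were 0.77 to 0.88. Those most like Mdm2 were Ppme1 (0.93), Rlf (0.92), Mthfd1l (0.91), Slc41a2 (0.91) and Tusc3 (0.91). These 10 genes are the top of a search over 14008 and are given as a description. Pvr had a mean of 6.37 in IK and 6.14 in SC tumors, a difference of 0.23 (limma, adjusted p = 0.432).

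Further p53 targets also gave no call. Of 44 other known targets, 42 were tested, and 0 passed (limma, adjusted p). In mean, 34 were higher and 8 lower in IK tumors, against 53.3% of all genes higher, with a median difference of 0.04. At an unadjusted p below 0.05 there were 4 higher, against 5.86% of all genes, and 0 lower, against 5.62%. Apaf1, which builds the caspase-activating apoptosome, stood at 5.71 ± 0.07 in IK and 5.60 ± 0.04 in SC tumors (SD, n = 6 each), a difference of 0.11 (limma, unadjusted p = 0.00885, adjusted p = 0.432). Slc19a2, a thiamine transporter gene, differed by 0.24 (limma, unadjusted p = 0.0184, adjusted p = 0.432). On the lower side, Dram1, a lysosomal gene of autophagy, differed by -0.17 and the death receptor gene Fas by -0.31 (limma, adjusted p = 0.456 and 0.601). Perp and Sfn were not analysed here. The mean level of the 42 tested targets ran from 4.885 to 4.957 log2 CPM in IK tumors. In SC tumors it ran from 4.826 to 4.890, so the ranges overlapped narrowly. A shift of this list as a whole was not tested.

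Regulators of p53 had differences from -0.30 to 0.24 with a median of 0.01 over 16 tested of 18, 9 higher, 7 lower and 0 past the adjusted threshold (limma). The checkpoint kinase gene Chek2 had the smallest p among them, at 4.11 ± 0.13 in IK and 3.86 ± 0.12 in SC tumors (SD, n = 6 each), a difference of 0.24 (limma, unadjusted p = 0.00431, adjusted p = 0.432). Its relative Chek1 differed by 0.16 and the kinase gene Hipk2 by -0.30 (limma, adjusted p = 0.434 and 0.491). Trp63 and Trp73 were not analysed here.

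Cell cycle genes that p21 represses through the DREAM complex had higher means in IK tumors for 12 of 12, with a median difference of 0.14 and 0 past the adjusted threshold (limma). At an unadjusted p below 0.05 there were 6 of 12 higher, against 5.86% of all genes. Cdk1, the mitotic kinase, differed by 0.19 (limma, unadjusted p = 0.00221, adjusted p = 0.432) and the checkpoint kinase Bub1 by 0.25 (limma, unadjusted p = 0.0134, adjusted p = 0.432). Cdkn1a had r = 0.43 with their mean level over the 12 tumors (permutation p = 0.165, adjusted p = 0.259). It was 0.05 within IK and 0.75 within SC tumors. The RNA of the inhibitor and of the genes it represses was thus not seen to run in opposite directions in whole tumors. Repression by the p21 protein was not tested. The ATF4 and CHOP list had higher means for 6 of 6 genes (median 0.16) and the hypoxia list for 8 of 9 (median 0.34), with 0 genes past the adjusted threshold in either (limma). Atf3 differed by 0.28 and Atf4 by 0.21 (limma, adjusted p = 0.434 and 0.452). Adm differed by 1.245 and Slc2a1 by 0.71 (limma, adjusted p = 0.432 for both). Car9, the hypoxia gene with a lower mean in IK tumors, differed by -0.06 (limma, adjusted p = 0.886). Its means were low, at 0.57 in IK and 0.63 log2 CPM in SC tumors.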

How the data were processed

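RNA of 12 whole tumors was sequenced after Qiagen RNeasy extraction and Illumina TruSeq library preparation, per the labels' protocols. The submitters' processing notes name the build mm9 and the tools TopHat 1.4.1, CASAVA 1.8.2, limma and HTSeq; how strand was handled is not given in the sources used here, so reads of overlapping genes cannot be told apart. The authors deposited log2 values, of the form log2 CPM with 0.5 reads added: 100% of values were whole reads within 0.001, which gave the depth. Gene symbols came from GENCODE M21 by identifier (14004 of 14496).

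The 14008 genes that reached a log2 CPM of 0 in 6 or more tumors were fitted with limma 3.58.1 in R 4.3.3, with a variance trend on the mean, two-sided, and Benjamini-Hochberg adjustment at 0.05. The log2 unit set limma as the test. Correlations used 100000 seeded permutations. List levels are means of log2 CPM over tested genes. The test was checked on simulated data. The members and gene lists were chosen with earlier results of these data known. Named genes were all members, Trp53, Mdm4, the 2 smallest p per direction in each pathway list where none passed, and the 5 genes most like Cdkn1a and Mdm2; other genes named were chosen after their values were seen. Alternatives were filters, scalings, variance models, weights, a replicate block, covariates, an exact permutation test and leaving out each tumor.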

Additional observations from a re-analysis of the deposited data

Results flagged for a closer look

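Sesn1 in SC replicate 6 stood apart from the rest of its group. Its level there was 6.28 log2 CPM, against 6.51 to 6.63 in the other 5 SC tumors, a gap of 0.669 of the group's range where Dixon's 95% critical value for 6 samples is 0.625. It was the only such tumor among 24 groups of values examined (10 members, Trp53 and Mdm4 in each group), and chance alone flags about 5% of groups. The same tumor had the highest hypoxia level of the SC group, at 6.05 log2 CPM, and the lowest muscle level of all 12, at -1.33. Their part in the low Sesn1 level was not tested.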

How the results depend on the processing

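In none of 23 alternatives was any of the 10 members called. Of 230 recomputed member differences, 215 kept their direction and 15 turned. With array weights Ccng1 was at -0.0252. With the hypoxia level as a covariate, chosen after seeing the data, Cdkn1a (-0.0461), Bbc3 (-0.0412), Phlda3 (-0.0921) and Zmat3 (-0.0266) turned negative and Sesn1 (0.156) positive. Leaving out each tumor gave ranges of -0.0190 to 0.0373 for Ccng1, -0.0513 to 0.0616 for Phlda3, -0.0944 to 0.0366 for Sesn1 and -0.0195 to 0.0412 for Zmat3; Cdkn1a ranged from 0.22 to 0.42, Mdm2 from 0.10 to 0.15, Bax from 0.06 to 0.12, Bbc3 from 0.09 to 0.21, Trp53inp1 from 0.05 to 0.13 and Aen from -0.13 to -0.08, with no turn in direction. The cause of these turns was not tested. Among all genes tested 0 were called; 545 were called with array weights, 1 without a variance trend, and 0 to 171 with each tumor left out, the 171 without IK replicate 2. With a replicate block 0 members and 0 genes were called. At an unadjusted p below 0.05 (limma) there were 3 members, Cdkn1a (0.0220), Mdm2 (0.0175) and Bax (0.0434), against 1549 of all 14008 genes. Same-numbered tumors deviated together with correlations of -0.31 to 0.45, the highest for replicate 6. These correlations cannot settle whether the numbers pair the tumors. Quantile scaling moved the median of all genes from 0.01 to 0.03. Each member had at least 901 reads in every tumor.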
